A study of Homo sapiens with 2 samples.

Results

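The genes described here encode the proteins of the cytosolic ribosome. They were taken by symbol and gene type: protein-coding genes named RPL or RPS with a number and at most an A, L or X after it, together with RPLP0, RPLP1, RPLP2, RPSA and FAU. Genes on the Y chromosome, RPS6 kinases and pseudogenes were left out. The rule found 82 genes among 18518 gene numbers, 49 of the large subunit and 33 of the small one, and all 82 were listed in both libraries. The rule itself uses names and gene types and no measured value.

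The cells were H1, a widely used line of human embryonic stem cells. Of 2 RNA libraries, 1 came from wild-type H1 and the other from H1 labelled MEIS1-/-, and the latter is called the MEIS1-/- library here by its label alone. MEIS1 encodes a homeodomain transcription factor that partners HOX and PBX proteins. MEIS1 itself reached 89 counts in wild type against 68 in the other library, a ratio of 0.76 (0.54 to 1.05), so its level did not check the label. Both cultures were taken through the same stepwise induction towards blood, with activin A at 40 ng/ml and BMP4 at 50 ng/ml for 2 days, then VEGF at 40 ng/ml and bFGF at 50 ng/ml for 2 days, and both were sampled on day 3, inside the second step. The labels named no clone, no separate cultures and no deleted exon. With 1 library per genotype no test between genotypes was possible. Each ratio below sets 1 library against the other, and its exact Clopper-Pearson 95% interval covers counting error only.

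A ribosome is an RNA machine whose small subunit reads the messenger RNA and whose large subunit joins amino acids. Its proteins are needed in near equal numbers, and their genes are among the most active in any growing cell. Most of their messenger RNAs begin with a C followed by an unbroken run of pyrimidines, the TOP motif (terminal oligopyrimidine), through which mTOR and the RNA-binding protein LARP1 adjust how strongly they are translated. The libraries measured RNA abundance and not translation.

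The start of several members is printed here to show this shared feature beside the genes the results turn on. Each line gives the position and strand and runs from 30 bases before to 15 bases from the annotated start, 5′ to 3′ on the gene's strand, from RefSeq on GRCh38.p14. Capitals mark a C at the start with the pyrimidines that follow it. RPS13, RPL22, RPLP2 and RPL24 had high ratios between the libraries, RPL41, RPS6 and RPLP0 were among the members with the highest levels, and RPL28, RPS27 and RPS27L had the lowest ratios.
RPS13, chr11:17077653-17077697, minus strand: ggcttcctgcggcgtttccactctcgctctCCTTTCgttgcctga
RPL22, chr1:6199581-6199625, minus strand: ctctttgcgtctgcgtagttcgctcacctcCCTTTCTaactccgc
RPLP2, chr11:809937-809981, plus strand: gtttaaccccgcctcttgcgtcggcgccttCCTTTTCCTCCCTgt
RPL24, chr3:101686704-101686748, minus strand: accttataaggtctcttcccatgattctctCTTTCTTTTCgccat
RPL41, chr12:56116603-56116647, plus strand: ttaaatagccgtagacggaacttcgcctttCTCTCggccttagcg
RPS6, chr9:19380222-19380266, minus strand: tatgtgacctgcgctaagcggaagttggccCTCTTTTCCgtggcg
RPLP0, chr12:120201097-120201141, minus strand: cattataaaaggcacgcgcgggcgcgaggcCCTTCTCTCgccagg
RPL28, chr19:55385902-55385946, plus strand: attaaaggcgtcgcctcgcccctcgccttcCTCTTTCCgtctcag
RPS27, chr1:153990732-153990776, plus strand: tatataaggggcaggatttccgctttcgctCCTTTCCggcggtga
RPS27L, chr15:63157463-63157507, minus strand: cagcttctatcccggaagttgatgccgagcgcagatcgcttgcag

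Of the sequences shown, RPS27L alone has no such start. A promoter entry matched 65 members. A C followed by at least 4 bases that were each C or T stood exactly at the start of 43 of the 65, or 66.2%, against 4.04% of all 27305 promoters of the same table. Allowing the run to begin within 10 bases of the start gave 56 of 65 members (86.2%) and 33.3% of all promoters. In the whole window of 300 bases, CGGAAG, a core of ETS factor motifs, was found on either strand in 61.5% of member promoters and 19.9% of all promoters. TATA was found in 35.4% and 30.1%, GGGCGG, a GC box, in 56.9% and 44.6%, and CACGTG, an E-box, in 4.62% and 7.43%. Against the promoters of the 12957 protein-coding genes listed in these libraries, the share with the run at the start was 5.10%, with CGGAAG 29.01%, with TATA 19.5%, with GGGCGG 65.6% and with CACGTG 9.48%, so for the GC box the order of members and background turned round. These are matches of letters in a window and not shown sites of binding.

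Ribosomal protein genes were among the most abundant transcripts of both cultures. Counted together, the 82 genes held 160662 of 5202877 wild-type counts, a share of 3.09% (Clopper-Pearson 3.07 to 3.10). In the MEIS1-/- library they held 178946 of 5296431, a share of 3.38% (3.36 to 3.39). Counts favour long transcripts, so levels of different genes are compared as FPKM, the deposited value that allows for gene length and for the number of fragments sequenced. On that scale members made up 41 of the 100 highest genes of wild type and 44 of the 100 highest of the MEIS1-/- library. The median member stood at 439 FPKM in the former and 471 FPKM in the latter, where the median over all genes compared was 8.78 and 8.72. From here on, paired values give wild type first.

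**Figure D1:**
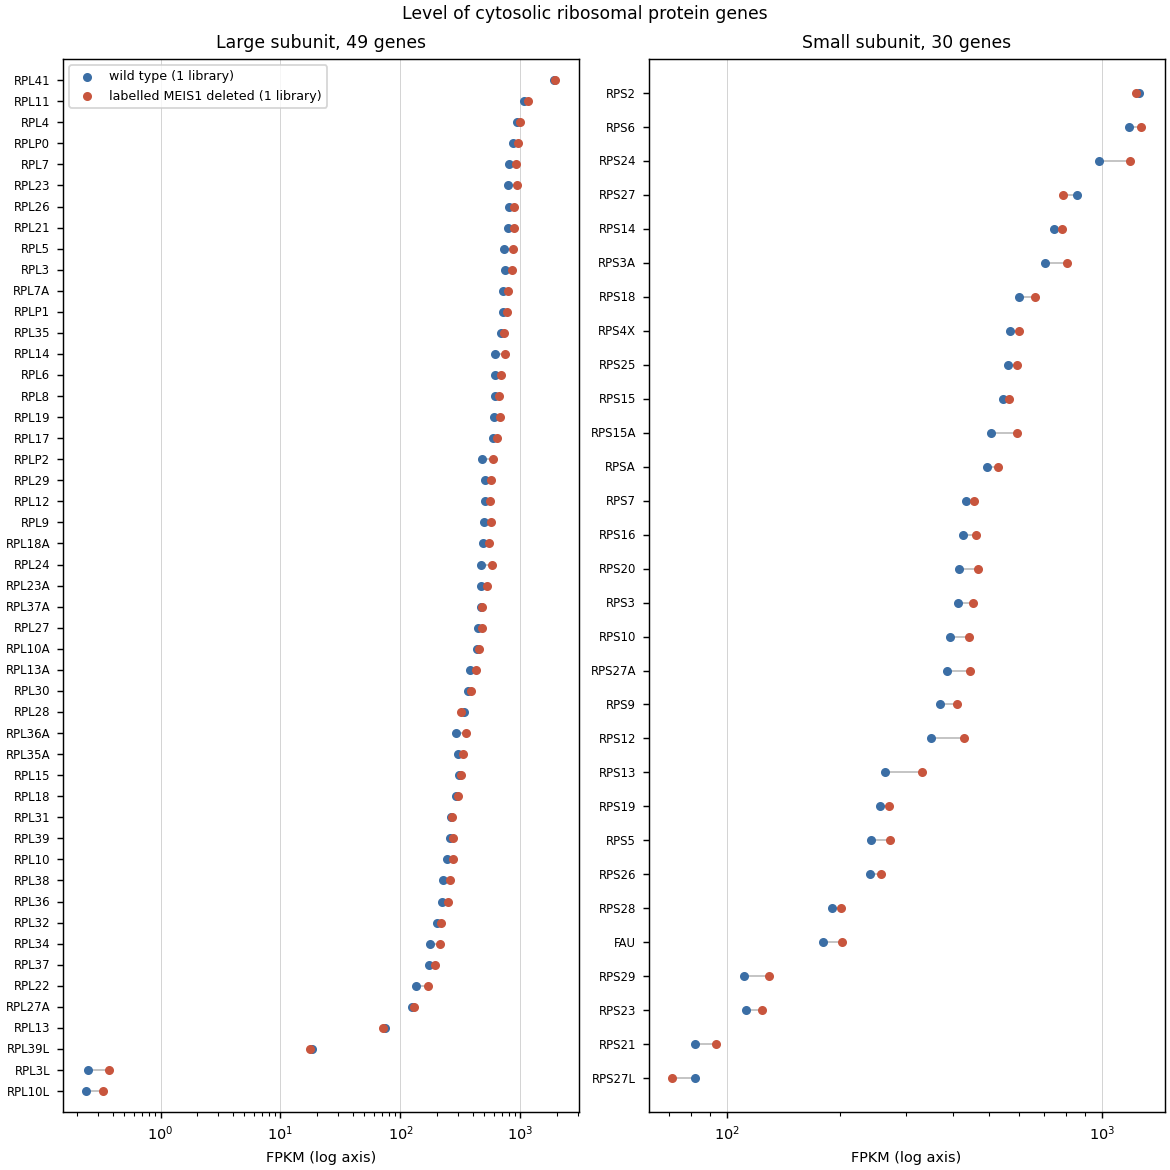
Deposited FPKM (log axis) of 49 large and 30 small subunit genes in the wild-type library (blue) and the library labelled MEIS1 deleted (red), 1 point per library, ordered by the mean of both. Most genes lie above 100 FPKM, with the blue point to the left of the red one, and RPL3L, RPL10L and RPL39L lie far below the rest.

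Among large subunit genes RPL41, which encodes a very short basic protein, was the highest, at 1905 and 1950 FPKM. RPL11, whose protein also binds the ubiquitin ligase MDM2 when assembly fails, followed at 1066 and 1164. RPL4 had 933 and 993 FPKM, and RPLP0, the base of the stalk that recruits elongation factors, had 875 and 947. The gap from RPL41 to RPL11 was far wider than the difference between libraries for either gene, whereas RPL4 and RPLP0 lay within 1.1-fold of each other in each library.

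Among small subunit genes RPS2 (1254 and 1232 FPKM) and RPS6 (1179 and 1269 FPKM) changed places between the libraries. RPS6 encodes the protein phosphorylated by the S6 kinases. RPS24 had 978 and 1186 FPKM and RPS27 854 and 788, so the distance between that pair widened in the MEIS1-/- library. The order of all 82 members was otherwise nearly the same in both libraries, with a Spearman rho of 0.99 across genes, which are not independent replicates.

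At the low end, paralogues known for restricted expression had the lowest levels. RPL3L, a muscle paralogue of RPL3, had 2 and 3 counts (0.25 and 0.37 FPKM) against 743 and 846 FPKM for RPL3. RPL10L, a testis paralogue of RPL10, had 1 count in each library (0.24 and 0.33 FPKM) against 245 and 272 FPKM for RPL10. These counts are at or under 3, the limit that a count of 0 would still allow, so no ratio is given. RPL39L, a paralogue known from testis and stem cells, was detected, at 18.4 and 17.8 FPKM, well below RPL39 at 257 and 273.

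RPL13, RPL27A and RPS23 had 1747, 3176 and 1952 counts in wild type but only 74.1, 124 and 113 FPKM. Their listed lengths were 4506, 4906 and 3325 nt, where the median over the 74 members with at least 500 counts was 747 nt. RPS21 (81.9 and 93.1 FPKM), RPS29 (111 and 129 FPKM) and RPL22 (136 and 169 FPKM) were also low, at listed lengths of 418, 428 and 2099 nt. The median FPKM of the large subunit was 467 and 522, and that of the small subunit 414 and 454.

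Most members were slightly higher in the MEIS1-/- library. Of the 80 members that reached 10 counts in either library, 72 had a ratio above 1 after TMM scaling and 8 a ratio below it. The median log2 ratio, labelled deleted over wild type, was 0.15, or 1.11-fold, where the median over all 14381 genes compared was 0.0032. Summed over all 82 genes the ratio was 1.1 (1.09 to 1.11). In bulk RNA a different mix of cells and a different amount of RNA per cell cannot be told apart. In what follows a member is called higher when its counting interval lies above a ratio of 1. By that rule 54 of the 80 were higher and 0 lower, with 26 intervals that included 1. Set against other genes of the same listed length, as described further on, 25 were above and 5 below and the median log2 ratio was 0.056, and scaling by total counts gave 2 intervals below 1. Over all genes compared 15.4% were higher and 14.7% lower, and over the 2715 genes with at least 500 counts, whose intervals are narrower, 28.7% and 25.1%. All 54 were among the 74 members with at least 500 counts, of which they made up 73.0%.

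Few members differed by much. Only RPS13 and RPL22 were higher by at least 25% with an interval that excluded 1, 2 of 80, and 0 members were lower by the matching factor, at least 20%. The count of 2 became 4 with DESeq2 size factors and 0 after the centring on length described further on. The share of members was below the background of 10.1% higher and 10.6% lower among all genes compared, and of 8.14% and 9.58% among those with at least 500 counts. In total 78 of the 80 members lay within those limits whatever their interval, against 64.4% of all genes compared and 82.3% of those with at least 500 counts. The standard deviation of the log2 ratio was 0.091 over the 74 members with at least 500 counts and 0.31 over all 2715 such genes. These shares and spreads describe 2 libraries and were not tested.

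**Figure D2:**
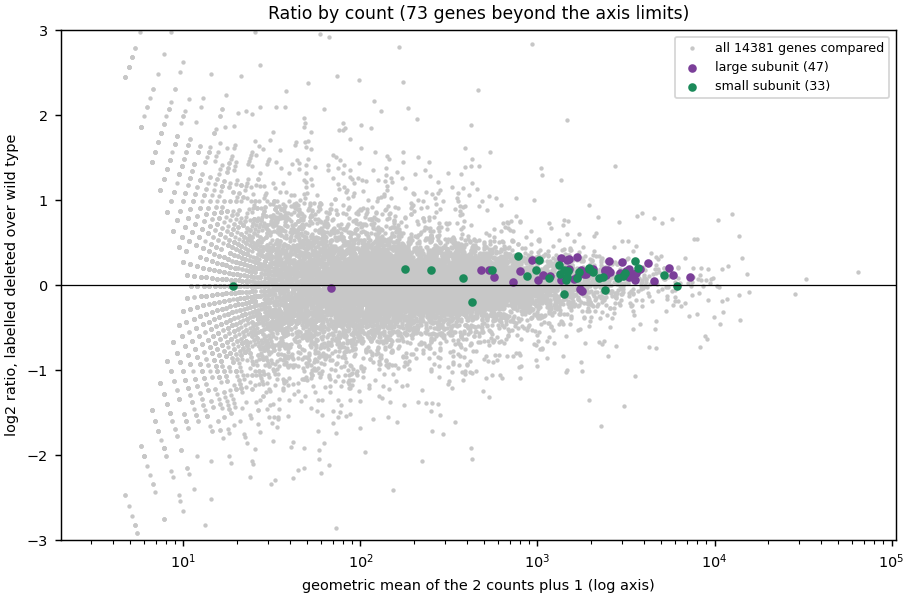
Log2 ratio (labelled MEIS1 deleted over wild type) against the geometric mean count plus 1 (log axis) for the 14381 genes compared (grey), the 47 large subunit genes (purple) and the 33 small subunit genes (green), with 73 genes beyond the axis limits. The members form a narrow band just above 0 at high counts, inside the spread of other genes.

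The large subunit had 34 of 47 members higher and a median log2 ratio of 0.15, and the small subunit 20 of 33 and a median of 0.13. Their summed ratios were 1.11 (1.102 to 1.12) and 1.09 (1.07 to 1.099). The distributions of single members overlapped almost fully, and the difference between subunits was not tested.

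**Figure D3:**
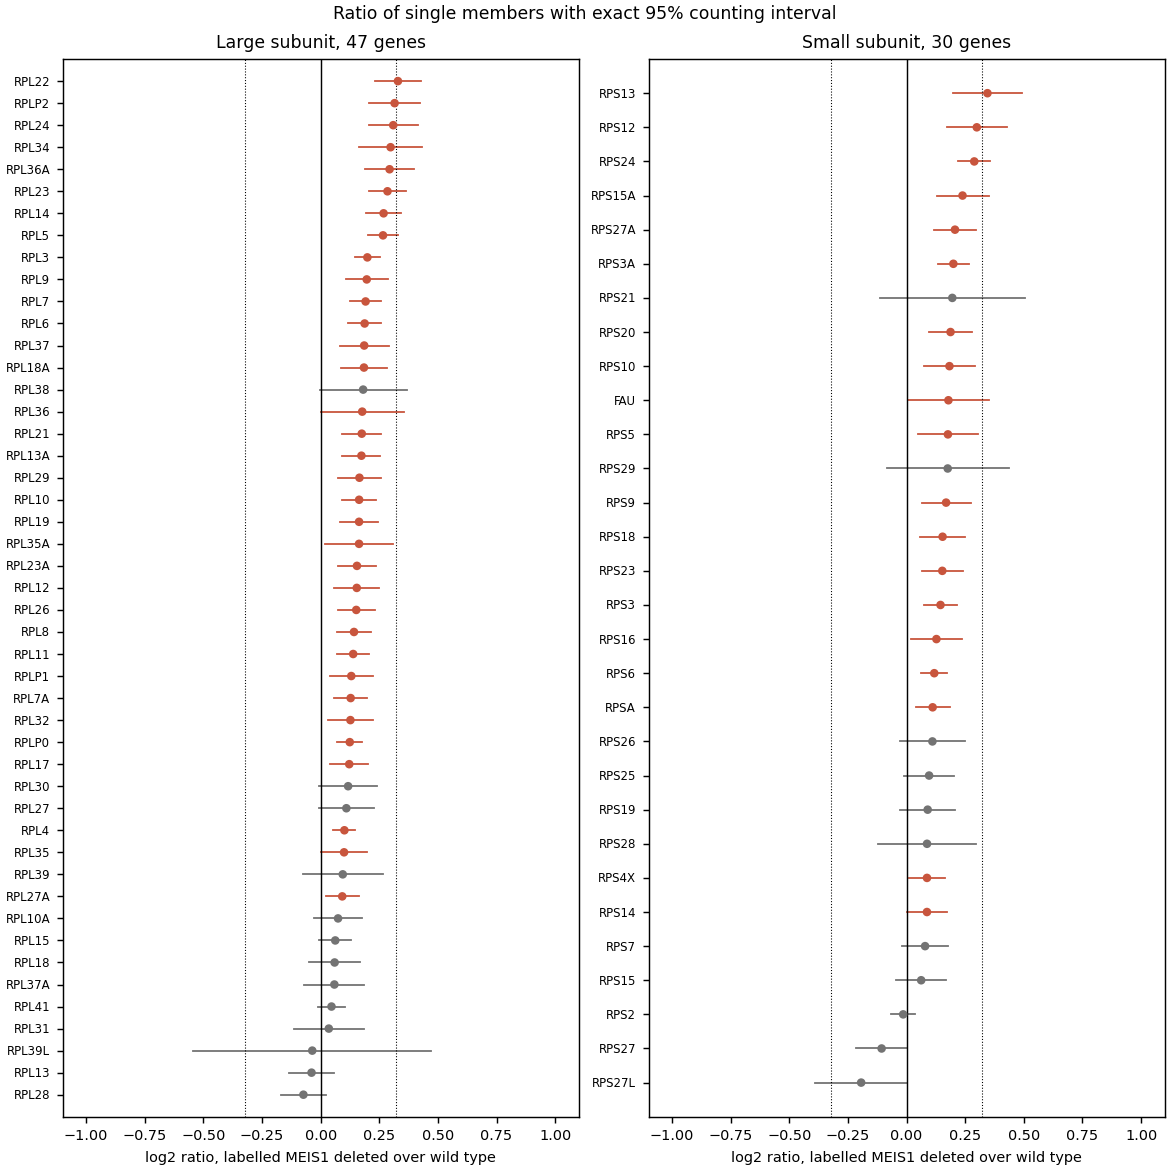
Log2 ratio of 77 of the members compared, each with its exact 95% counting interval (bars), large subunit at left and small subunit at right. Red marks the 53 intervals above 0, grey the 24 that include 0, and the dotted lines stand at 25% higher and 20% lower; only RPS13 and RPL22 lie beyond them.

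RPS13, a small subunit protein, was counted 684 and 878 times (263 and 332 FPKM). Its ratio was 1.27 (1.15 to 1.41), the highest ratio among members with at least 10 counts. RPL22, an RNA-binding protein best known for its role in lymphocyte development, had 1476 and 1874 counts and a ratio of 1.26 (1.17 to 1.35). RPLP2, one of the acidic stalk proteins, had 1209 and 1520 counts, a ratio of 1.24 (1.15 to 1.34). Its stalk partners RPLP1 (1792 and 1982 counts) and RPLP0 (5523 and 6081 counts) had smaller ratios, 1.09-fold (1.03 to 1.17) and 1.09-fold (1.05 to 1.13), and the intervals of RPLP2 and RPLP0 did not overlap.

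The next ratios were those of RPL24 with 1337 and 1674 counts (1.24-fold, 1.15 to 1.33), RPS12 with 915 and 1138 counts (1.23-fold, 1.13 to 1.34) and RPL34 with 829 and 1030 counts (1.23-fold, 1.12 to 1.35). RPS24, which is mutated in some families with Diamond-Blackfan anaemia, had 3181 and 3926 counts with a ratio of 1.22 (1.17 to 1.28). RPL5, which joins RPL11 and the ribosomal RNA of that complex in restraining MDM2, had 3833 and 4656 counts, a ratio of 1.202 (1.15 to 1.255). RPL11 had 3413 and 3796 counts and a ratio of 1.101 (1.05 to 1.15), so both partners were higher, by amounts whose intervals just met.

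Against the pooled ratio of all members, 12 intervals lay wholly above it and 8 wholly below. Besides members named so far, those above were RPL23, with 2295 and 2825 counts and a ratio of 1.22 (1.15 to 1.29), RPL14, with 2735 and 3328 (1.204, 1.14 to 1.27), RPL36A, and RPL3, which lies near the catalytic centre of the large subunit, with 5138 and 5959 (1.15, 1.11 to 1.19). Those below were the members with the lowest ratios together with RPL41, whose counts of 4467 and 4660 gave 1.03 (0.99 to 1.08), and RPL15, whose 3481 and 3672 gave 1.04 (0.996 to 1.09).

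At the other end of the order no interval excluded 1. RPS27L, a paralogue of RPS27, had 454 and 401 counts (82.2 and 71.3 FPKM), a ratio of 0.87 (0.76 to 1.002). RPS27 itself had 1464 and 1374 counts, a ratio of 0.93 (0.86 to 1.0005). These paralogues were the lowest pair of all members. RPL28, with 1828 and 1755 counts, had a ratio of 0.95 (0.89 to 1.02), and RPL13, with 1747 and 1718, 0.97 (0.91 to 1.04). RPL39L had 68 and 67 counts and a ratio of 0.98 (0.69 to 1.39), too few counts to tell a difference of the size seen for most members. RPS2, on 6124 and 6126 counts, had a ratio of 0.99 (0.96 to 1.03), an interval that left out the pooled ratio of 1.1.

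Of the members with roles known from blood or growth control, RPL22, RPS24 and RPL5, named above, had intervals wholly above the pooled ratio. RPS19, RPS14, RPS6 and RPL13A lay inside the range of the rest. RPS19, the gene most often mutated in Diamond-Blackfan anaemia, had 1126 and 1211 counts and a ratio of 1.06 (0.98 to 1.16). RPS14, lost in the 5q- syndrome, had 2145 and 2302 counts (1.06-fold, 1.001 to 1.13). RPS6 had 4928 and 5404 counts (1.09-fold, 1.04 to 1.13), and RPL13A, whose protein also takes part in interferon-controlled translation, 2334 and 2660 (1.13-fold, 1.07 to 1.19). The genes that encode fusion proteins with ubiquitin or a ubiquitin-like part lay close by, RPS27A at 1.15-fold (1.08 to 1.23) and FAU, with 515 and 589 counts, at 1.13-fold (1.004 to 1.28). RPSA, which is also a laminin-binding surface protein, had 2911 and 3177 counts and a ratio of 1.08 (1.03 to 1.14).

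Members with the pyrimidine run exactly at the start had a median log2 ratio of 0.15, with 32 of 43 higher, and those without it 0.11, with 11 of 21 higher. The 16 compared members with no promoter entry had a median of 0.17, with 11 higher. Since 56 of 65 members had the run within 10 bases of the start, many of those without it at the exact start had it nearby. Other genes with at least 500 counts and the run exactly at the start had a median of 0.043. Of these 145, 34.5% were higher, beside 28.7% of all genes with at least 500 counts. In the TOP group the ratios ran from -0.11 for RPS27 to 0.34 for RPS13, so members of this start type lay at both ends of the order.

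Members have short transcripts, and among other genes the median ratio was higher in shorter length classes; the part of length in the result was not tested. Their listed lengths were under 1000 nt in 63 of the 80 genes compared. Among other genes with at least 500 counts, the 51 listed under 1000 nt had a median log2 ratio of 0.10, the 298 of 1000 to 2000 nt 0.064, the 894 of 2000 to 4000 nt 0.022 and the 1398 longer ones -0.015. Short genes that are not members thus had a median above that of long ones. These classes were not cleared of paralogues outside the rule or of other genes with TOP messenger RNAs. TPT1, a gene of the latter kind, had a log2 ratio of 0.10, the same value as the median of the shortest class. The classes are therefore not a background free of genes related to the members. When each member was set against the median of other genes of its length class, an alternative added after seeing the data, the median was 0.056, with 25 of 80 intervals above the class median and 5 below. The 11 members of 1000 to 2000 nt had a median of 0.13 and the 4 members of 2000 to 4000 nt 0.16, while the 2 longer ones, RPL13 and RPL27A, had 0.026. Across genes, the log2 ratio and listed length had a Pearson r of -0.14 and a Spearman rho of 0.033 over the 74 members with at least 500 counts, and -0.074 and -0.097 over the 2641 other such genes.

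**Figure D4:**
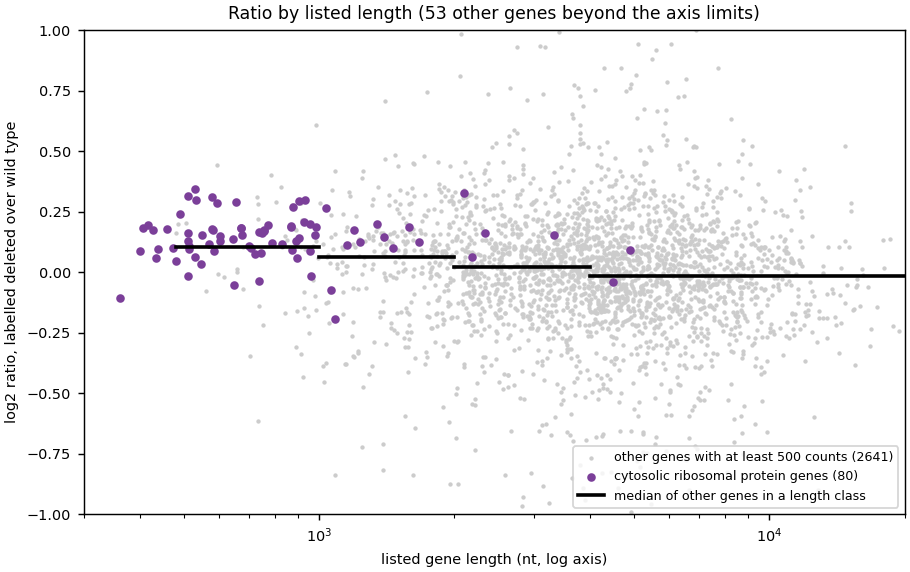
Log2 ratio against listed gene length (log axis) for 80 members (purple) and 2641 other genes with at least 500 counts (grey), with 53 of the latter beyond the axis limits; black lines are medians of the other genes by length class. The black line steps down from 0.10 under 1000 nt to -0.015 over 4000 nt, and most members lie above it.

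Base composition differed among members too. Over the 74 members with at least 500 counts the log2 ratio and the mean GC content of their GENCODE transcripts had a Pearson r of -0.26 and a Spearman rho of -0.26, and over other such genes -0.13 and -0.17. These are descriptions across genes of 2 libraries. Centring on GC class left the median at 0.14, with 59 intervals above and 2 below. On chromosome 19, which carried 12 members, their median was 0.11 and that of 118 other genes with at least 500 counts -0.065. Members on every chromosome with at least 4 of them had a median above 0, while the 3 on chromosome 16 had a median of -0.014. Among chromosomes with at least 4 members, only on chromosome 15 was their median, 0.043, below that of other genes. There 92 other genes with at least 500 counts had 0.057.

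Reads shared with near-identical copies made some members uncertain. RSEM divides reads that fit several genes, and 30 of 82 members had an expected count off a whole number by more than 0.005 in at least 1 library. The median log2 ratio was 0.14 for the 51 members compared with whole counts and 0.15 for the 29 without. Partners were sought by name alone, so copies with other names or no symbol are not in the sums below. Of the partners found, RPL13AP5, a pseudogene of RPL13A, took most. It had 1238 and 1251 expected counts, 34.7% and 32.0% of the pair's sum. The summed log2 ratio of the pair was 0.12 (0.050 to 0.18) against 0.17 for RPL13A alone. RPL36A shared its sequence with the readthrough gene RPL36A-HNRNPH2, which held 699 and 643 counts. RPL36A was 1.23-fold higher alone, a log2 ratio of 0.29 (0.19 to 0.40), and together the pair gave 0.16 (0.073 to 0.25).

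Smaller shares were assigned to 5 pseudogenes of RPL23A (251 and 299 expected counts in all), and to the readthrough genes RPL17-C18orf32 (184 and 240) and RPS10-NUDT3 (83.1 and 138). RPSA2, listed as protein coding and outside the rule, had 516 and 520 counts, a ratio of 0.997 (0.88 to 1.13); it was chosen after its values were seen. Over all members, 20 pseudogenes found by name held 1616 and 1634 counts and 3 readthrough genes 966 and 1021.

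Of 4 paralogues with a longer suffix, which the rule left out, 3 had larger ratios than the genes they are named after. RPL26L1 had 45 and 77 counts, a log2 ratio of 0.75 (0.21 to 1.32), beside 0.15 (0.072 to 0.23) for RPL26. RPL22L1, which is known to be repressed by RPL22 protein, had 59 and 87 counts and a log2 ratio of 0.54 (0.052 to 1.05), beside 0.33 (0.23 to 0.43) for RPL22. RPL36AL had 580 and 797 counts and a log2 ratio of 0.44 (0.29 to 0.60), beside 0.29 for RPL36A. RPL7L1 had 275 and 311 counts and 0.16 (-0.076 to 0.40), beside 0.19 (0.13 to 0.26) for RPL7. In all 4 pairs the intervals overlapped.

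Other components of the translation machinery were mostly shifted by amounts of the same order. RACK1, a scaffold protein of the small subunit, had 3423 and 3714 counts and a log2 ratio of 0.10 (0.035 to 0.17). Of 13 translation factors and other genes with TOP messenger RNAs, all with at least 500 counts, 11 were higher and 0 lower. That is 84.6% higher, beside 28.7% of all genes with at least 500 counts. The other 2 intervals included 1, and the median of the 13 was 0.090. The highest ratio among them was that of EIF3E, a subunit of initiation factor eIF3, with 1890 and 2415 counts and 0.34 (0.25 to 0.43), and EEF1A1, the elongation factor that carries transfer RNA, had 32138 and 34026 counts and 0.07 (0.05 to 0.09). Of 12 host genes of small nucleolar RNAs, which also carry TOP starts, all 12 intervals included 1 on fewer counts, with a median of 0.17.

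Factors that assemble the ribosome had a median of 0.18. Of 44, 17 were higher (38.6%, beside 15.4% of all genes compared) and 1 lower. NOP16 had 82 and 129 counts and a log2 ratio of 0.63 (0.23 to 1.06), GNL2, a GTPase of large subunit assembly, 446 and 645 counts and 0.52 (0.34 to 0.69), and RRS1 121 and 176 counts and 0.52 (0.18 to 0.87). EFL1, a GTPase that with SBDS frees the large subunit for joining, was the lower one, with 298 and 232 counts and -0.37 (-0.63 to -0.12). RNA polymerase I and its factors had a median of 0.11, with 2 of 14 higher (POLR1G and TAF1A), or 14.3%, close to the 15.4% of all genes compared. The 4 dedicated chaperones of ribosomal proteins all had intervals that included 1. Proteins of the separate mitochondrial ribosome had a median of 0.12, 14 of 78 being higher (17.9%, beside 15.4% of all genes compared) and 2 lower. Their ratios were more scattered than those of the members, from -0.65 for MRPL41 (55 and 35 counts) to 0.69 for MRPL21 (48 and 79 counts). Their counts were far lower, 13611 and 15109 in sum, and 62 of the 78 intervals included 1. The part of counting error in the scatter was not tested.

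Regulators of ribosome production went in both directions. MYC, which promotes transcription of ribosomal genes, had 362 and 500 counts and a log2 ratio of 0.45 (0.25 to 0.65), while its relative MYCN had 131 and 90 counts and -0.55 (-0.96 to -0.16). LARP1, which binds TOP messenger RNAs, had 2405 and 2390 counts and -0.024 (-0.11 to 0.058), and MTOR 889 and 861 counts and -0.061 (-0.20 to 0.076). Over the 18 regulators 3 were higher and 3 lower, or 16.7% each way beside 15.4% and 14.7% of all genes compared, with a median of -0.026. Among genes linked to RPL5 and RPL11, the cell cycle inhibitor CDKN1A had a log2 ratio of 0.24 (0.069 to 0.40), MDM2 0.11 (0.0088 to 0.21) and its relative MDM4 -0.27 (-0.44 to -0.096).

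**Figure D5:**
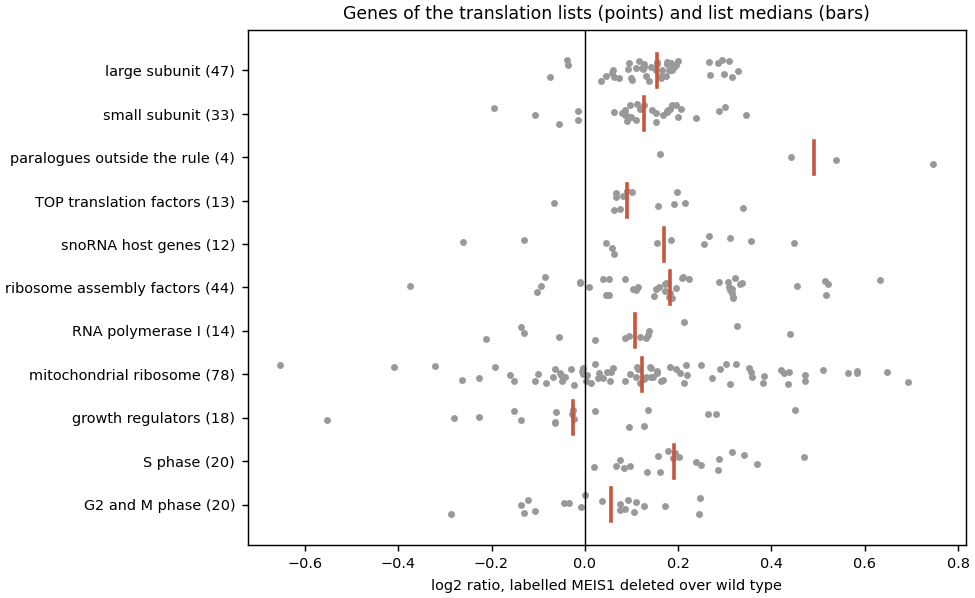
Log2 ratio of each gene (points) and the median (bar) for the 2 subunits and 9 related lists, with the number of genes compared in brackets. The subunits form narrower clouds than the mitochondrial ribosome or the assembly factors, most of whose genes had fewer counts. Every list median but that of the growth regulators lies above 0.

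Whole-culture measures of both libraries are set beside these results, and their part in them was not tested. S phase genes were higher in 10 of 20 cases (50%), with a median of 0.19. G2 and M phase genes were higher in 4 of 20 (20%), with a median of 0.056. As background for these and the marker counts below, 15.4% of all genes compared were higher and 14.7% lower. Among genes with at least 500 counts the shares were 28.7% and 25.1%. Ribosomal RNA genes, 21 of them listed, took 0.0692% of all counts in wild type, and their share in the other library was 0.149%. Summed counts of 12 haemato-endothelial markers were 6666 and 9258, with 10 higher and 2 lower, those of 9 mesoderm markers 3861 and 3815, with 3 higher and 4 lower of 7 compared and a median log2 ratio of -1.41, the sum being mostly HAND1 (2291 and 2767), and those of 10 listed pluripotency markers 14346 and 11830, with 7 of 9 compared lower and SOX2 at 4 and 9. Blood markers, 6 of 10 listed, summed to 123 and 184, with HBE1 at 0 and 2. Endoderm markers summed to 1989 and 1799, with 1 higher and 2 lower of 8 compared, and fibroblast markers to 8413 and 13846, with 4 of 6 higher.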

How the data were processed

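The authors deposited 1 table per library with a gene number, a length in nt, an expected count and an FPKM value. Expected counts are RSEM's estimates, which may be fractions of a read, deposited without scaling, and the deposited FPKM values are scaled for length and depth, per the file headers. The submitters' processing notes name BWA, Bowtie, RSEM and hg19; the series design text names other tools, and the order of steps is not given in the sources used here.

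Symbols came from a RefSeq table of GRCh38.p14, which held 18413 of the 18518 gene numbers, used for names, gene type and chromosome. Counts were rounded, absent genes taken as 0, and scaled by TMM (edgeR 4.0.16, R 4.3.3), with effective sizes that differed by a factor of 1.01. Ratios used a pseudocount of 1, and intervals (95%) came from the counts conditional on their sum. Shared reads and PCR copies are not covered by them. Totals were 5202877 and 5296431. A ratio was called at 25% higher or 20% lower with an interval that excluded 1. DESeq2 size factors were an alternative. The computation was tested on simulated counts. No model across genes was fitted.

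Named members were every member past the 25% threshold, the 6 highest and lowest ratios with at least 50 counts, the 4 highest and lowest FPKM of each subunit, paralogues ending in L, RPSA, FAU, the stalk genes, members with further roles (RPL5, RPL11, RPS19, RPS14, RPS6, RPL13A, RPS27A) and up to 6 that share most reads; up to 4 genes came from each list. The gene family, its rule and the lists were proposed with earlier results of these data known, although the rule uses none of them. Other genes named, and the lengths, GC content (GENCODE v29 transcripts), start sequences and chromosomes, were looked at after the values were seen. Some members and list genes enter the counts and medians but are not reported here by name, nor drawn in the plots that label genes.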

Additional observations from a re-analysis of the deposited data

How the results depend on the processing

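With 1 library per genotype no replicate could be left out. No paired analysis was possible because each group holds 1 sample. Of 138 values of the main results under the alternatives, 119 stayed close, and 0 members were at least 20% lower under any of them. Close meant within the counting interval for the summed ratio, 1.1 times for FPKM and 1.5 times for counts. For the median log2 ratios it meant within the median limits of single members' intervals, which is a wide limit. It let the length-centred medians of all members (0.056, from 0.15) and of the small subunit (0.047, from 0.13) pass as close. The median log2 ratio ranged from 0.056 to 0.16. The count of members at least 25% higher, 2, was 1 with total counts as scaling, from FPKM and after centring on GC class, 4 with DESeq2 size factors, 5 with the 4 left-out paralogues added, 0 at 1.5-fold and after centring on length class, and 40 at 1.1-fold. Intervals below 1, 0 in the report, numbered 2 with total counts, 1 with upper quartile scaling, 2 after GC centring and 5 after length centring. Intervals above 1, 54 in the report, numbered 35 among members with whole counts, where fewer members were compared, and 25 after length centring, which also gave 0.061 as the large subunit median. The summed ratio was 1.09 with total counts, 1.11 with DESeq2 size factors and 1.09 from FPKM. The median FPKM of both libraries together was 526 among members with whole counts, against 452 over all members. For single members 730 of 770 values stayed within their interval, and among members whose interval had excluded 1, 3 changed sign, after length centring: RPL35 (-0.0026), RPS4X (-0.015) and RPS14 (-0.015). Of those whose interval had included 1, 14 changed sign under at least 1 alternative, 11 after length centring, 4 after GC centring and 1 with DESeq2 size factors. GC and length centring and leaving out chromosome 19 were added after seeing the data; the cause of the other moves was not tested. Depth limits RPL39L, RPS21 and RPS29 most, and RPL3L and RPL10L cannot be compared.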
